A study of Arabidopsis thaliana with 8 samples.

Results

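The genes described here were shifted the same way by the hira genotype in protoplasts and in roots of Arabidopsis thaliana. They were chosen on all 8 arrays of the series, as probe sets of the Affymetrix array that differed between hira and WT (wild type) with tissue as a covariate. A probe set was kept where its adjusted p was under 0.05, both hira arrays lay on the same side of both WT arrays in each tissue, and the mean difference was at least 0.5 on the log2 scale in each tissue. Of the 22746 probe sets tested, 558 met this rule, 377 higher and 181 lower in hira, and differences seen in 1 tissue only are left out.

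The 4 groups were hira protoplasts, hira roots, WT protoplasts and WT roots, with 2 arrays each. Protoplasts are plant cells whose walls were removed by enzymes, and were made here from root tissue. The labels give the genotypes as hira and wild type, with no allele, accession or plant age, and name enzyme digestion as the treatment of every sample, roots included. Whether the replicates of a group were grown or harvested separately is not stated, and the p-values therefore reflect no more than the spread among these 8 samples, part or all of which may be technical. The series set out to learn how hira affects the dedifferentiation that follows protoplast formation, and the comparison below asks what differs between the genotypes whichever tissue is examined.

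HIRA is a histone chaperone that places the variant histone H3.3 on DNA outside replication, and it receives H3-H4 dimers from the small chaperone ASF1. In plants ASF1 is encoded by a pair of genes, ASF1A and ASF1B, and ASF1 also serves the chaperone CAF-1, which loads H3.1 behind the replication fork. No probe set is listed for HIRA alone, or for another member of its complex alone. The hira label was therefore not checked through its transcript, and expression of the complex is not analysed here.

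Each probe set's deposited log2 values have their median over the 8 arrays at 0. They show differences between arrays, and neither a gene's level nor its distance from the detection floor can be read from them. For the same reason the tissue labels could not be checked by marker level. The gap between the 5′ and 3′ probe sets of the GAPDH RNA control averaged -0.09 in hira protoplasts, against 0.62 in WT protoplasts, and 0.04 in hira roots, against -2.22 in WT roots. The control values are centred per probe set too, so a gap near 0 does not show that RNA was intact. Only differences of the gap between arrays can be read. The hira minus WT difference of this gap was -0.71 in protoplasts and 2.26 in roots, and that of the actin control was -1.26 and 1.56. The RNA controls thus differed between the genotypes in each tissue, in opposite directions. Nothing is read from this contrast about the genes described here. The part of RNA quality in the gene values was not tested.

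Across all probe sets the genotype differences in the tissues had little in common. They correlated at r = 0.028 (Spearman's rho = 0.088) over 22746 probe sets, which are not independent replicates, between comparisons that share no array. Mean differences of at least 1 log2 in both tissues were found for 1051 probe sets. Of these, 270 were higher in hira in both tissues, 262 were lower in both and 519 went in opposite directions. The arrays of the genotypes did not overlap in either tissue for 7505 probe sets, 60.5% of which went the same way. These were 20.0% of all probe sets (9.14% with hira above WT and 10.8% below), and 13.0% did not overlap in opposite ways.

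The test with tissue as a covariate called 627 probe sets (limma, Benjamini-Hochberg adjusted p under 0.05), 2.76% of those tested, of which 418 (1.84%) were higher and 209 (0.919%) lower in hira. All 627 had arrays that did not overlap in the same direction in both tissues, and 69 fell short of the shared set by a difference under 0.5 in 1 or both tissues. The 377 shared probe sets with higher values in hira were 1.66% and the 181 with lower values 0.796% of those tested, 2.45% together. After quantile normalization the split was 168 higher and 142 lower. Just inside the size limit were AT5G11480 and AT5G16420, higher in hira by 0.63 and 0.68 in protoplasts and by 0.5 each in roots. On the lower side they were SEC, at -0.55 in protoplasts and -0.8 in roots, and AT1G70590, at -0.76 and -0.56. Just outside it were AT3G05910, at 0.77 and, before rounding, just under 0.5, AT3G55920, at 0.76 and 0.49, AT1G55170, at -0.49 and -0.59, and AT1G61240, at -0.71 and -0.49.

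Members with higher values had a median difference of 1.1 in protoplasts and 1.02 in roots, and reached 3.58 in protoplasts and 3.27 in roots. Members with lower values had medians of -0.93 in protoplasts and -1.07 in roots and extended to -5.73 and -4.99. The test of the difference between the tissues, which called 1108 probe sets or 4.87% of all, called 7 of the 558 members. The rule makes such calls less likely among members, so nothing is read from this count. Fitted as 4 group means, hira against WT was called in 8.29% of all probe sets in protoplasts and in 9.19% in roots. Both tissues were called separately for 229 members, 163 higher and 66 lower, which the rule makes more likely, so nothing is read from these counts.

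**Figure D1:**
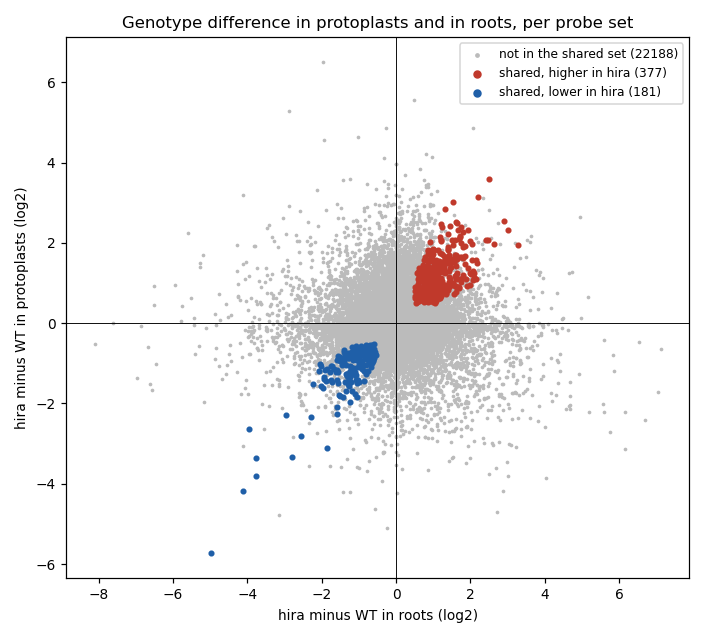
Mean hira minus WT difference (log2) of each of 22746 probe sets in protoplasts (vertical) and in roots (horizontal). The 377 red points are the shared probe sets with higher values in hira and the 181 blue points those with lower values, each at least 0.5 from 0 on both axes, while the grey points spread in all directions (r = 0.028 over all points).

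A single gene is listed for 322 of the 558 probe sets, 234 higher and 88 lower, several genes for 16 and none for 220. A symbol other than the locus code exists for only 16 of these genes, and 1 more has a name among its synonyms. These 17 are described first, by role, with the values of every array.

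The first 4 genes were higher in hira in both tissues. They are ASF1B (chromatin), AUR1 (division), TUA6 (cytoskeleton) and the phosphatase gene TOPP7, which is not assigned to any of these roles. ASF1B, which hands H3-H4 to HIRA and CAF-1, had centred log2 values of -0.13 and -0.15 in hira protoplasts, against -1.77 and -1.15 in WT protoplasts, and of 1.75 and 1.1 in hira roots, against 0.29 and 0.13 in WT roots. The arrays of the genotypes were apart in each tissue, by 1.32 in protoplasts and 1.22 in roots, and the hira protoplast arrays lay below the WT root arrays. The shift over both tissues was 1.27 (SE 0.19, limma adjusted p = 0.0387). AUR1, an Aurora kinase that acts in mitosis, gave -1.28 and -1.43 in hira protoplasts, against -2.08 on both WT protoplast arrays, and 1.94 and 2.0 in hira roots, against 1.5 and 1.28 in WT roots. It was higher in hira by 0.65 (SE 0.07, adjusted p = 0.0221), a small shift beside its tissue difference of -3.4 (protoplast minus root). The WT protoplast values of AUR1 had an SD of 0.002, and centred values do not show whether this is the floor of the signal.

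TUA6, an alpha-tubulin, was at -0.12 and -0.61 in hira protoplasts, against -1.12 and -0.98 in WT protoplasts, and at 1.34 and 1.5 in hira roots, against 0.12 and 0.28 in WT roots. TOPP7, a catalytic subunit of type 1 protein phosphatase, was at -0.1 and -0.4 in hira protoplasts, against -1.22 and -0.98 in WT protoplasts, and at 0.92 and 0.95 in hira roots, against 0.33 and 0.1 in WT roots. The shifts were 0.95 for TUA6 (SE 0.16, adjusted p = 0.047) and 0.78 for TOPP7 (SE 0.10, adjusted p = 0.0285). All 4 genes were lower in protoplasts than in roots in both genotypes. The calls of ASF1B, AUR1, TUA6 and TOPP7 held under 6, 8, 4 and 5 of 15 alternative fits, and all 4 were lost after quantile normalization, where AUR1 was at 0.13 and the 4 adjusted p reached 0.465 for AUR1.

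Of the 15 loci in the list of other histone chaperones and remodellers, 4 were measured. The fit with tissue as a covariate called 1 of them, ASF1B, and the fit of group means called 2, ASF1B and ATRX. SGA2 (ASF1A), the other ASF1 gene, was at -0.62 in protoplasts and 0.14 in roots (adjusted p = 0.456). The H3.3-associated remodeller ATRX was at 0.24 and -1.88, with limma adjusted p of 0.37 with tissue as a covariate and 0.0184 with group means, and its tissues differed in direction. The fourth gene, AT1G63210, was at -0.1 and -0.03 (adjusted p = 0.376). Of 3 measured histone H3 genes, MGH3 was at -0.23 in protoplasts and 0 in roots, the centromeric HTR12 at -0.01 and 1.09, and AT1G75600 at 0.91 and -0.11. None of the 3 was called by either limma fit, and none had an unadjusted p under 0.05. Of the 5 genes found as histones by name, limma with tissue as a covariate called 0 and with group means 1, the linker histone gene HIS1-3, which was also the 1 with an unadjusted p under 0.05. Its differences were 1.26 in protoplasts and 4.65 in roots (adjusted p = 0.13 with tissue as a covariate and 0.0297 with group means). Over all 22746 probe sets, 627 were called with tissue as a covariate, 2512 with group means, and 4391 had an unadjusted p under 0.05.

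Of the 17 genes, 3 are described with the cell wall, 2 higher and 1 lower in hira. TBL36, of a family of wall polysaccharide acetyltransferases, was at -1.53 and -1.69 in hira protoplasts, against -3.92 and -3.94 in WT protoplasts, and at 3.28 on both hira root arrays, against 1.68 and 1.53 in WT roots. Its shift was 2.0 (SE 0.15, adjusted p = 0.0104), and it was larger in protoplasts, at 2.32, than in roots, at 1.67 (adjusted p of the difference = 0.0497). GH9C2, a glycosyl hydrolase of the plant cellulase family, was at 0.12 and -0.22 in hira protoplasts, against -2.04 and -2.52 in WT protoplasts, and at 1.93 and 0.96 in hira roots, against 0.21 and -0.12 in WT roots. It was higher in hira by 1.81 (SE 0.30, adjusted p = 0.0453).

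CSLD2, a cellulose synthase-like protein of tip-growing cells such as root hairs, was lower in hira. Its values were -0.66 and -0.49 in hira protoplasts, against 0.5 and 1.03 in WT protoplasts, and -0.52 and -0.56 in hira roots, against 0.49 and 0.93 in WT roots. All 4 hira arrays lay below all 4 WT arrays, with differences of -1.34 in protoplasts and -1.25 in roots, and the tissue difference was 0.01 (shift -1.29, SE 0.15, adjusted p = 0.0253). The name pattern for wall enzymes found 36 genes and missed TBL36, GH9C2 and CSLD2. Of the 36, limma with tissue as a covariate called 0, against 9 with an unadjusted p under 0.05 and 4 by the fit of group means. Over all 22746 probe sets these counts were 627, 4391 and 2512. Their median shift was -0.02, against -0.03 over all probe sets (0.01 and 0 after each array was centred on the least varying probe sets). The calls of TBL36, GH9C2 and CSLD2 held under 12, 5 and 11 of 15 alternatives, and TBL36 and GH9C2 were lost after quantile normalization (adjusted p over the alternatives 0.00129 to 0.059 for TBL36 and 0.0142 to 0.139 for GH9C2).

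Metabolic enzymes included UGT73B1, a UDP-glycosyltransferase of a family that attaches sugars to small molecules. It was at 1.12 and 1.37 in hira protoplasts, against -0.81 and -0.62 in WT protoplasts, and at 0.62 and 0.73 in hira roots, against -0.76 and -1.95 in WT roots. Every hira array was above every WT array, and the differences of 1.96 in protoplasts and 2.03 in roots were nearly equal (shift 2.0, SE 0.26, adjusted p = 0.0286). Of 43 measured UDP-glycosyltransferase genes it was the 1 called with tissue as a covariate, against 7 with an unadjusted p under 0.05 and 2 called with group means, and the median of the family was -0.03. Over all 22746 probe sets these counts were 627, 4391 and 2512. ASPGA1, an asparaginase, was at -0.31 and -0.13 in hira protoplasts, against -1.21 and -0.91 in WT protoplasts, and at 1.69 and 1.35 in hira roots, against 0.63 and 0.13 in WT roots (shift 0.99, SE 0.16, adjusted p = 0.0442).

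AAH, allantoate amidohydrolase, acts in the release of nitrogen from purines. Its values were -1.02 and -1.44 in hira protoplasts, against 0.94 and 0.76 in WT protoplasts, and -0.65 and -1.21 in hira roots, against 0.65 and 0.69 in WT roots. The genotypes did not overlap over the 8 arrays, with differences of -2.08 in protoplasts and -1.59 in roots, while the protoplast minus root difference was -0.06 (shift -1.84, SE 0.18, adjusted p = 0.0187). The calls of UGT73B1, ASPGA1 and AAH held under 8, 4 and 12 of the 15 alternatives, with adjusted p of 0.00675 to 0.1, 0.0192 to 0.158 and 0.0107 to 0.0752 over them.

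PPR336, a mitochondrial pentatricopeptide repeat protein, was at 0.46 and 0.02 in hira protoplasts, against -1.38 and -0.96 in WT protoplasts, and at 1.03 and 0.64 in hira roots, against -0.02 and -0.1 in WT roots (shift 1.15, SE 0.19, adjusted p = 0.0442). The other pentatricopeptide gene found by name, PPR596, was at 3.47 in protoplasts and 0.86 in roots and was called with group means (limma adjusted p = 0.00923) but not with tissue as a covariate (adjusted p = 0.115). The signalling peptide gene RALFL31, of the RALF family that controls alkalinization of the wall space, was at 0.18 and 0.33 in hira protoplasts, against -0.78 and -0.21 in WT protoplasts, and at 0.62 and 0.86 in hira roots, against -0.34 and -0.18 in WT roots. Its shift of 0.87 (SE 0.15, adjusted p = 0.047) left no overlap between the genotypes over the 8 arrays. The same held for ZCW7, at 0.57 and 0.44 in hira protoplasts, against -0.23 and -0.4 in WT protoplasts, and at 0.53 and 0.23 in hira roots, against -0.69 and -0.38 in WT roots (shift 0.86, SE 0.10, adjusted p = 0.0268).

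Regulators of transcription and of nuclear and cytosolic proteins were among the genes with lower values in hira. BZIP60, a transcription factor of the unfolded protein response of the endoplasmic reticulum, was at -0.48 and -0.08 in hira protoplasts, against 0.78 and 0.54 in WT protoplasts, and at -0.43 and -0.37 in hira roots, against 0.37 and 0.08 in WT roots (shift -0.78, SE 0.13, adjusted p = 0.0474). KIWI, a transcriptional coactivator, was at -0.37 and -0.25 in hira protoplasts, against 0.33 and 0.32 in WT protoplasts, and at -0.46 and -0.61 in hira roots, against 0.36 and 0.25 in WT roots (shift -0.74, SE 0.07, adjusted p = 0.017). In both genes all 4 hira arrays were below all 4 WT arrays.

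SEC, an O-linked N-acetylglucosamine transferase, was at 0.02 and -0.04 in hira protoplasts, against 0.56 and 0.51 in WT protoplasts, and at -0.65 and -0.73 in hira roots, against -0.02 and 0.23 in WT roots (shift -0.67, SE 0.08, adjusted p = 0.027). AT1G72390, with the synonym PHYTOCHROME-DEPENDENT LATE-FLOWERING, was at -0.02 and -0.05 in hira protoplasts, against 0.64 and 0.9 in WT protoplasts, and at -0.92 and -0.82 in hira roots, against 0.02 and 0.18 in WT roots (shift -0.89, SE 0.08, adjusted p = 0.0155). For SEC the hira protoplast arrays overlapped the WT root arrays, so that its genotypes were apart within each tissue but not over all 8 arrays, while those of AT1G72390 were apart over all 8. A second probe set of AT1G72390 was at -0.24 (adjusted p = 0.385), with -0.38 in protoplasts and -0.11 in roots. Held calls numbered 3 for BZIP60, 11 for KIWI, 6 for SEC and 11 for AT1G72390, and 5, 6 and 7 for PPR336, RALFL31 and ZCW7, of 15 alternatives each.

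**Figure D2:**
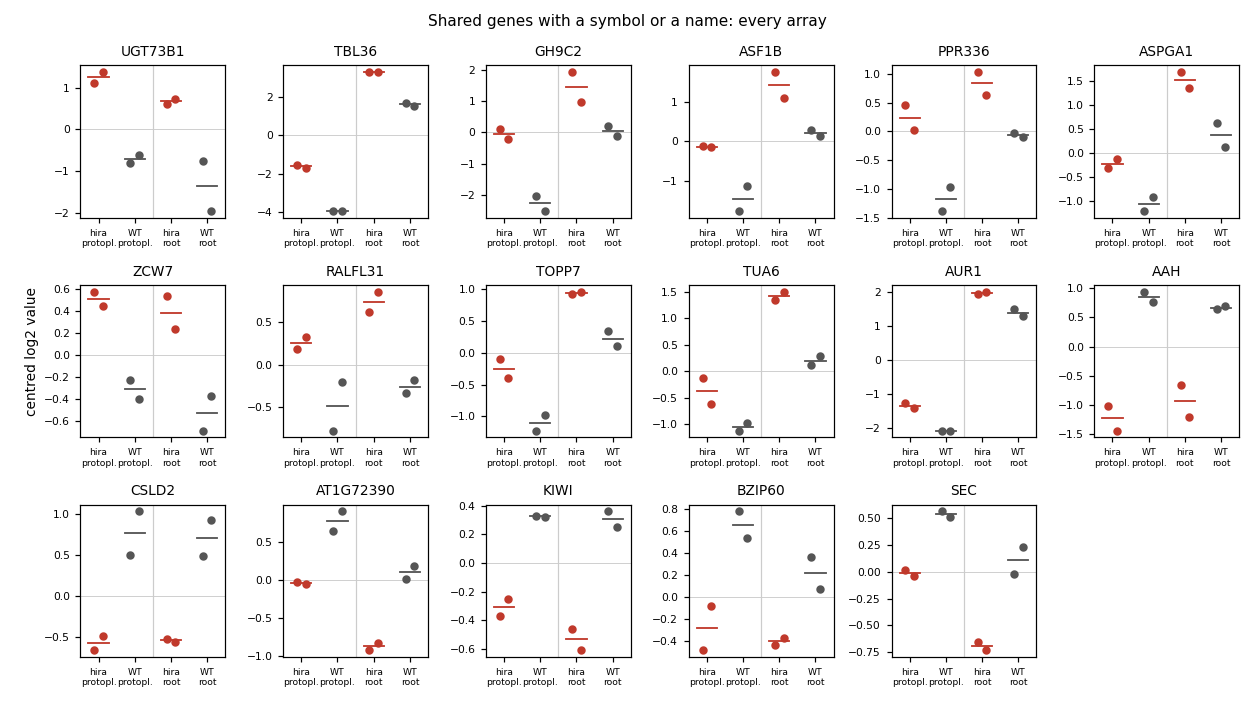
Centred log2 value (vertical) of the 17 shared genes with a symbol or a name, by group, 1 panel a gene. Points are the 2 arrays of a group and bars their means, hira in red and WT in grey, protoplasts left and roots right of the grey line; hira and WT points do not overlap in either tissue, and in AAH and CSLD2 the level differs by genotype with little difference between the tissues.

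The other 8 named genes are given only by locus code, and no role is given for them here; they are the 4 in each direction with the largest value of the smaller tissue difference. The pseudogene AT1G43590 (biotype from RefSeq, assembly TAIR10.1), on chromosome 1, was at -2.71 and -2.72 in hira protoplasts, against 3.16 and 2.87 in WT protoplasts, and at -2.45 on both hira root arrays, against 2.45 and 2.63 in WT roots. The hira minus WT difference was -5.73 in protoplasts and -4.99 in roots, with a tissue difference of 0.11 (shift -5.36, SE 0.17, adjusted p = 0.00226). The replicate SDs were 0.006 in hira protoplasts and 0.001 in hira roots, against 0.201 in WT protoplasts and 0.126 in WT roots. Whether the hira values lie at the floor cannot be read, and if they do the difference is a lower bound. It was the only one of the 25 named genes that was called under all 15 alternatives, with adjusted p from 0.000172 to 0.0178.

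Of the other genes with lower values, AT5G39580 was at -2.58 and -1.25 in hira protoplasts, against 1.25 and 1.62 in WT protoplasts, and at -2.38 and -1.35 in hira roots, against 2.47 and 1.33 in WT roots (shift -3.56, SE 0.44, adjusted p = 0.0279). AT3G50610 was at -1.69 and -1.75 in hira protoplasts, against 1.59 and 1.63 in WT protoplasts, and at -1.22 and -1.84 in hira roots, against 1.22 and 1.34 in WT roots (shift -3.07, SE 0.17, adjusted p = 0.00755). In both, as in AT1G43590, the hira minus WT difference was large beside the protoplast minus root difference, which was -0.26 and 0.07. AT5G60760 differed from these in its tissue difference of 2.01, with -0.55 and -0.56 in hira protoplasts, against 2.54 and 1.61 in WT protoplasts, and -3.07 and -3.4 in hira roots, against 0.55 and 0.91 in WT roots (shift -3.3, SE 0.35, adjusted p = 0.0232).

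Among genes with higher values, AT3G61100 was at 0.17 and -0.13 in hira protoplasts, against -3.55 and -3.58 in WT protoplasts, and at 2.24 and 2.34 in hira roots, against -0.55 and 0.13 in WT roots (shift 3.04, SE 0.28, adjusted p = 0.0163). AT5G09570 was at 0.06 and 0.03 in hira protoplasts, against -3.17 and -1.86 in WT protoplasts, and at 3.07 and 2.15 in hira roots, against -0.55 and -0.03 in WT roots (shift 2.73, SE 0.35, adjusted p = 0.0287). In both genes hira protoplasts lay nearer to WT roots than to WT protoplasts. AT3G13760 was at 1.09 and 0.94 in hira protoplasts, against -1.52 and -1.09 in WT protoplasts, and at 2.16 and 1.44 in hira roots, against -0.94 and -1.47 in WT roots (shift 2.66, SE 0.25, adjusted p = 0.017). AT1G80720 was at 0.28 and 0.21 in hira protoplasts, against -2.0 and -1.64 in WT protoplasts, and at 1.45 and 1.24 in hira roots, against -0.21 and -1.95 in WT roots (shift 2.24, SE 0.38, adjusted p = 0.0467). The WT root arrays of AT1G80720 were far apart (SD 1.233), and its call held under 6 of 15 alternatives. The calls of AT3G61100, AT3G13760 and AT3G50610 each held under 13, that of AT5G60760 under 10, that of AT5G39580 under 8 and that of AT5G09570 under 6.

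**Figure D3:**
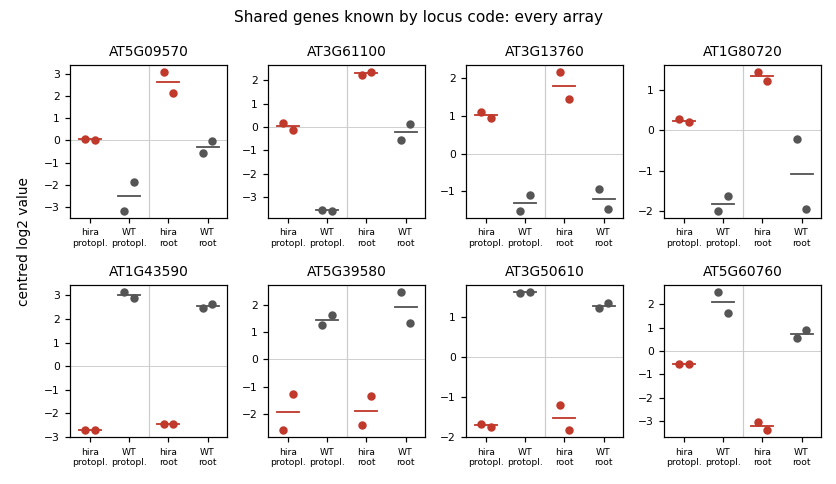
Centred log2 value (vertical) of the 8 named shared genes known by locus code, by group, 1 panel a gene. Points are the 2 arrays of a group and bars their means, hira in red and WT in grey; AT1G43590 lies between -2.72 and -2.45 on the hira arrays and between 2.45 and 3.16 on the WT arrays.

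The shared genes also had a tissue difference in common, which the rule did not use. Of the 377 probe sets with higher values in hira, 336 (89.1%) were lower in protoplasts than in roots, with a median protoplast minus root difference of -1.0. Of the 181 with lower values in hira, 156 (86.2%) were higher in protoplasts, with a median of 0.89. Over all probe sets 43.1% were lower and 56.9% higher in protoplasts, with a median of 0.01. On the deposited scale the genotype shift of most members thus ran against their protoplast minus root difference.

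In the tissue test 285 of the 377 were called lower (75.6%) and 10 higher in protoplasts, where 26.7% of all probe sets were called, 13.5% lower and 13.2% higher. Of the 181, 120 were called higher (66.3%) and 11 lower. The tissue and genotype terms of this balanced fit are estimated separately but share 1 residual spread, so a call for genotype makes a call for tissue more likely in either direction. The same 558 members had 84.4% and 80.7% on these sides after quantile normalization and 89.9% and 86.2% after each array was centred on the 5000 probe sets that varied least. A shared set chosen anew after quantile normalization had 56.0% of 168 higher members lower in protoplasts and 60.6% of 142 lower members higher in protoplasts, against 48.6% and 51.4% of all probe sets after that scaling, so the size of this pattern depends on the scaling.

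The group values show the order. Over the members with higher values the median was 0.02 in hira protoplasts, against -1.1 in WT protoplasts, and 0.98 in hira roots, against -0.04 in WT roots. Hira roots had the highest mean of the 4 groups in 341 of these 377 and WT protoplasts the lowest in 332. Over the members with lower values the medians were -0.01 in hira protoplasts, against 0.91 in WT protoplasts, and -1.0 in hira roots, against 0.07 in WT roots, with hira roots lowest in 151 and WT protoplasts highest in 156 of 181. Since each probe set is centred on its median, the groups in the middle of this order lie around 0 by construction. All 4 hira arrays were above all 4 WT arrays in 144 members (38.2%) and below them in 75 (41.4%), where such probe sets made up 2.6% and 5.16% of all probe sets. As the rule favours such members, nothing is read from these shares.

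**Figure D4:**
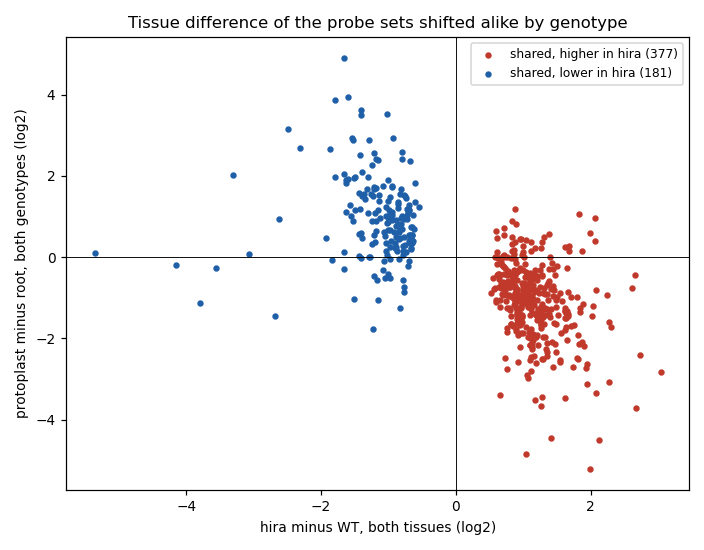
Protoplast minus root difference over both genotypes (log2, vertical) against hira minus WT difference over both tissues (log2, horizontal) for the 558 shared probe sets. Of the 377 red points (higher in hira), 336 lie below 0, and of the 181 blue points (lower in hira), 156 lie above 0.

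Gene families found by symbol or synonym held few shared members, but a symbol exists for only 1580 of the 13513 single-gene probe sets. Family members with neither a matching symbol nor a matching synonym were not counted. Apart from UGT73B1, PPR336 and ASF1B, shared members were found only among 990 pseudogene probe sets, where 2 were called higher and 2 lower, against 1.84% and 0.919% of all probe sets. They include AT1G43590, AT5G50315, higher by 0.93 in protoplasts and 0.8 in roots (adjusted p = 0.0446), and AT1G42365, at -1.03 in protoplasts and -0.81 in roots (adjusted p = 0.0487). The median over the pseudogenes was -0.05, against -0.03 over all probe sets, and -0.02 after either other scaling.

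Limma called 0 of 24 cytochrome P450 genes, against 1 with an unadjusted p under 0.05 and 0 with group means. Likewise 0 of 12 glutathione transferase genes (1 and 2), 0 of 9 peroxidase genes (4 and 0), 0 of 31 ubiquitin and proteasome genes (8 and 3), 0 of 7 WRKY genes (4 and 2) and 0 of 69 plastid-encoded genes (8 and 4) were called, with the unadjusted and group-mean counts in brackets. The same was found for 5 heat shock and chaperone genes (1 and 2), 7 late embryogenesis abundant genes (2 and 2) and 2 MYB genes (2 and 1). It also held for 7 defensin and pathogenesis-related genes (1 and 0), 2 cell cycle genes (0 and 0) and 1 F-box gene (0 and 0). AUR1 is not among the cell cycle genes found by name, and AT5G39580, given only by locus code, was matched to none of these families. The counts therefore do not cover whole families, and a shared member may have been missed. Median shifts in these families were -0.05 for P450, 0.57 for glutathione transferase, -0.79 for peroxidase, -0.08 for ubiquitin and proteasome, -0.46 for WRKY and 0.22 for plastid-encoded genes. Over all 22746 probe sets, 627 (2.76%) were called, 4391 had an unadjusted p under 0.05 and 2512 were called with group means. A share of 2.76% leaves few or no calls in lists of this size, so nothing is read from the counts of 0. A p above the threshold does not show that a gene was unchanged.

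Of the marker lists, the root hair expansins EXPA7 and EXPA18 went opposite ways, at -2.16 and -2.98 in protoplasts and at 2.55 and 2.59 in roots (adjusted p = 0.909 and 0.923). The cortex gene AT1G62500 was at -0.11 and 0.16, the stele gene LHW at 0.97 and 0.13, the stem cell niche gene BBM at 0.29 and -1.56 and the leaf gene RCA at -2.05 and -1.27, and none was called. The lists of endodermis, phloem, xylem, root cap and KNOX genes had no single-gene probe set, and no mitochondrially encoded gene was listed. The name patterns gave no transposon, disease resistance, receptor-like kinase, ribosomal, ERF or auxin gene. Genes of these families known only by locus code or by a short symbol, such as IAA30, were not found this way. Whether others of them are in the shared set was not examined. In bulk samples, fewer cells of a type and less RNA per cell cannot be told apart.

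A chromosome was assigned only to the 322 shared probe sets with a single listed gene, and these were spread over the genome. By RefSeq they lay on chromosomes 1 to 5, with 85 on chromosome 1, 51 on chromosome 2, 60 on chromosome 3, 50 on chromosome 4 and 76 on chromosome 5. These were between 2.21% of the measured genes of chromosome 3 and 2.59% of those of chromosome 4. In 11 pairs the genes were at most 3 genes apart, and 7 of these pairs shifted in the same direction. The 4 adjacent pairs were AT1G28140 with AT1G28150, AT2G01080 with AT2G01090, AT3G11620 with AT3G11630 and AT5G59240 with AT5G59250, higher in hira in each case. With 234 of the 322 genes higher and 88 lower in hira, many pairs would share a direction anyway. Nothing is read from these counts. Other probe sets exist for 4 shared genes. Those of AT1G72390, AT2G25870, AT2G44710 and AT5G04310 were at -0.24, 0.22, -0.63 and -0.02, and none was called (limma adjusted p from 0.385 to 0.697).

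Calls depended on single arrays. Leaving out hira protoplast replicate 1 left 9 called probe sets and leaving out replicate 2 left 11, against 627 with all arrays, and each ended the call of 24 of the 25 named genes, with AT1G43590 the exception (adjusted p up to 0.152 and 0.142). Without hira root replicate 1, 75 probe sets and 6 named genes were called. The counts were 365 and 15 without hira root replicate 2, 182 and 9 without WT protoplast replicate 1, 188 and 11 without WT protoplast replicate 2, 225 and 13 without WT root replicate 1 and 418 and 16 without WT root replicate 2. The SD of the difference between replicates over all probe sets was 0.309 in hira protoplasts and 0.615 in hira roots, against 0.612 in WT protoplasts and 0.736 in WT roots.

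Of the 558 shared probe sets, 6 were called under every one of the 15 alternative fits. They are AT1G43590, AT5G23405, higher by 1.65 in protoplasts and 1.72 in roots, AT4G37660, higher by 1.69 and 1.59, and 3 probe sets without a listed gene at shifts of -3.79, -1.42 and 1.14. AT5G23405, AT4G37660 and these probe sets are named because of this count. The arrays of a single tissue gave 695 calls in protoplasts and 0 in roots, where the lowest adjusted p was 0.0712 and 4548 probe sets passed 0.05 unadjusted.

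**Figure D5:**
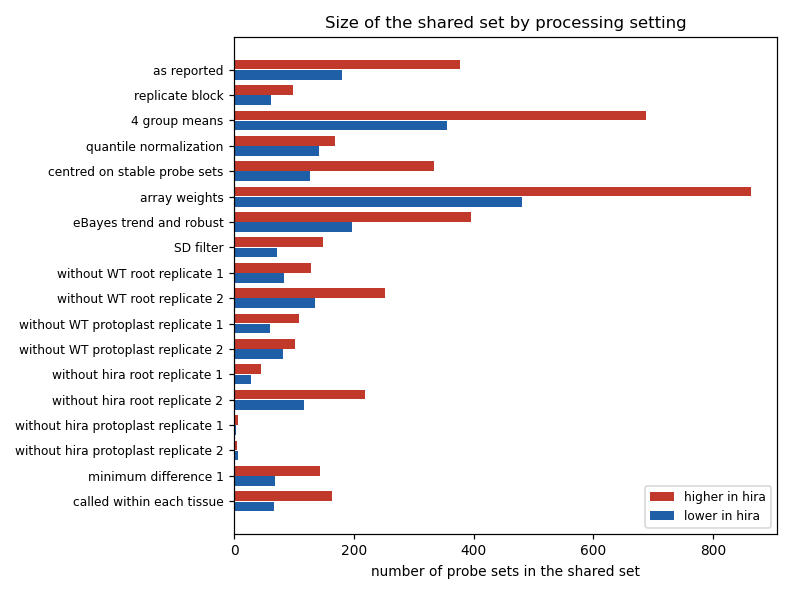
Number of probe sets in the shared set (horizontal, from 0) as reported and under each other processing setting, red for higher and blue for lower in hira. As reported the set has 377 and 181 members, and without hira protoplast replicate 1 or 2 it has 6 and 3 or 5 and 6.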

How the data were processed

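Total RNA of the 8 samples was labelled with biotin and hybridised to 1 Affymetrix array each. GCRMA is named in the submitters' processing notes without a version, and the deposited values are read here as log2, although no log base is given. Over the 8 arrays every probe set's median is 0 to within 5e-07, so the authors' log2 values were centred, and no filter on low values was applied. The number of arrays limits the precision. All 8 columns were used.

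The 64 control probe sets were set aside. The additive model of tissue and genotype was fitted with limma 3.58.1 (lmFit and eBayes, R 4.3.3) to 22746 probe sets, with 5 residual and 0.83 prior degrees of freedom. Tests were two-sided with Benjamini-Hochberg adjustment over all probe sets. Genotype effects per tissue and their difference came from a fit of 4 group means. Standard errors are those of the fit. The fit was tested on simulated data.

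The platform annotation gave 1 gene for 13513 probe sets, several for 503 and none for 8730, and RefSeq (TAIR10.1) matched 13436. Lists were matched by locus code, symbol, synonym or biotype, and 13 of their 68 loci were measured. A pattern that matched clone names was corrected after the data were seen. No genome build is named for the array, so no coordinates are given.

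Named genes are the shared ones with a symbol or name, up to 14 a direction, and up to 4 with a locus code only, ordered by the smaller difference, plus list members. The members and lists were chosen with earlier results of these data known. Alternatives are given in the closing section. Same-numbered replicates correlated between -0.096 and 0.048 in their differences, so the numbers were not taken as pairs.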

Additional observations from a re-analysis of the deposited data

Results flagged for a closer look

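Among the named shared genes, the genotype difference of TBL36 was larger in protoplasts than in roots by 0.65 (2.32 against 1.67, limma adjusted p of the difference = 0.0497). It is 1 of 7 shared probe sets whose shift differed in size between the tissues. The groups hold 2 arrays each, so no array was tested as an outlier.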

How the results depend on the processing

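Against 627 calls, 377 shared higher, 181 shared lower and 7 calls in the gene lists as reported, the counts were as follows. A fit of 4 group means gave 2512, 688, 355 and 50, and array weights gave 4235, 864, 481 and 324. A filter on the SD gave 221, 149, 72 and 3, with 15916 probe sets tested. Quantile normalization gave 358 calls, 168 shared higher and 3 list calls. A difference of at least 1 gave 143 and 69 shared, and a call within each tissue 163 and 66. Root arrays alone gave 0 calls, an alternative added after the data were seen. Replicate numbers were not shown to pair samples, and with the replicate block there were 164 calls, 98 and 61 shared, 1 list call, 302 calls of the tissue difference (1108 as reported) and 92.9% of the shared higher set lower in protoplasts. The tissue shares of 89.1% and 86.2% were 56.0% and 60.6% in sets chosen after quantile normalization. Centring on stable probe sets kept all these counts within 1.5 times, as did a robust trended fit, which was not run for the tissue difference. Where no value shows it, the cause was not tested.

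Leaving out 1 array gave 9 to 418 calls, 5 to 252 shared higher, 3 to 135 shared lower, 1 to 9 list calls, 142 to 2185 calls of the tissue difference, and tissue shares of 80.0% to 93.1% and of 66.7% to 88.9%. No named gene changed direction under any of the 15 alternatives. The rule fixes the direction when 1 array is left out, and several other alternatives leave the shift unchanged, so nothing is read from this. The 2 arrays per group limit precision, and centred values give no signal over background.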

Other observations

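Mean differences of at least 1 log2 in the same direction in both tissues were found for 532 probe sets, of which 212 were called. Some of the others are given as values, chosen after they were seen. Of the 28 uncalled genes with a symbol, the asparaginase gene ASPGB1 had lower means in hira, at -3.56 in protoplasts and -2.34 in roots (SE 0.68 for the mean shift, adjusted p = 0.0886), as did the glycosyltransferase gene UGT76D1, at -4.78 and -3.15 (adjusted p = 0.16). The paralogue of ASPGB1, ASPGA1, was higher in hira.

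Photosystem genes PSAE-1, at -2.63 and -1.55 (adjusted p = 0.174), and PSBY, at -2.15 and -1.65 (adjusted p = 0.219), had lower means in hira, as did the lateral root factor gene LBD29, at -2.01 and -3.6 (adjusted p = 0.316), and the auxin response repressor gene IAA30, at -1.43 and -3.16 (adjusted p = 0.0976). Higher means were found for the MADS-box gene AGL42, at 2.06 and 3.52 (adjusted p = 0.166), and for CYP71B23, at 2.12 and 2.16 (adjusted p = 0.0874). None of these differences passed limma's test with tissue as a covariate, and that of IAA30 passed with group means (adjusted p = 0.048). Some of the means rest on replicates that were far apart. Hira roots gave -2.35 and 0.44 for PSAE-1, -3.12 and 0.15 for PSBY and -0.55 and 3.15 for AGL42. WT roots gave -3.16 and 2.92 for LBD29, and WT protoplasts gave 0.41 and 5.95 for UGT76D1. In PSAE-1 and PSBY the root arrays of the genotypes overlapped.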
